A study of Mus musculus with 14 samples.

Results

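The 37 genes described here are erythroid transcription factors, membrane genes and their companions, which red blood cell precursors use in the spleen. They were chosen by symbol and known role, with earlier results of these data known. Each was read from its Agilent probe with the highest mean signal, among probes that stood well above background on at least 7 arrays. All 37 passed this filter and are set here against the 24909 genes and unnamed transcripts tested in all, of which 14730 carry a symbol. Splenocyte RNA came from 7 WT mice of the C57BL/6 strain and from 7 Sting gt/gt mice, which carry the golden ticket allele of Sting, the adaptor that links sensing of cytosolic DNA to type I interferon. The allele was induced with the mutagen ENU on the C57BL/6 background, and it affects every cell of the mouse. WT mice were bought from an animal centre and Sting gt/gt mice came from another laboratory, and the methods do not call them littermates. All 14 mice had received chicken collagen type II (CII) in complete Freund's adjuvant (CFA) 2 weeks before, and the methods give an age of 10 to 14 weeks when arthritis was induced. No array of an unimmunized mouse or of CFA alone was used here, so each value below compares 2 immunized groups. Cell suspensions of the spleen are treated with ACK buffer in the study's methods, which lyses mature red blood cells and leaves nucleated precursors.

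Erythroid cells of the mouse are made in the bone marrow and also in the red pulp of the spleen, where output can rise in inflammation or blood loss. GATA1, TAL1, LMO2 and LDB1 form a complex on DNA that, together with KLF1, switches on the genes of heme, globin and the red cell membrane. Erythropoietin acts through its receptor to keep the precursors alive, and the transferrin receptor brings in iron. As the cells mature, a spectrin and ankyrin skeleton is laid under the membrane, surface proteins that carry blood groups are inserted, and the nucleus and organelles are removed.

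Promoter sequence was read for the members because they share these regulators by textbook account. RefSeq (GRCm38.p6) gave windows for 28 of the 37 genes, 34 windows in all since some genes have several starts. Of each, the 250 bases before the start were searched on both strands for GATA letters (AGATAA or TGATAA), for the KLF letters CCNCNCCC, for the NF-E2 letters TGANTCA, and for a composite of E-box letters with GATA, which is CTG, then 8 or 9 bases of any kind, then GATAA. A composite overlaps a GATA match whenever A or T stands before its GATAA. GATA letters stood in 14 of 34 member windows (41.2%), against 16.6% of 32841 promoter windows of all genes. KLF letters stood in 23 of 34 (67.6%), against 45.9% of all windows. NF-E2 letters stood in 2 of 34 (5.88%), against 6.75% of all. The composite stood in 8 of 34 (23.5%), against 1.25% of all windows. The 8 genes with it were Klf1, Gfi1b, Epb42, Rhag, Kel, Ermap, Icam4 and Hemgn. These are matches of letters, which do not show that a factor binds there.

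The windows below are those of 5 genes with the composite (Kel, Klf1, Rhag, Ermap, Epb42), of Tmod1 and Tfrc, which had lower levels in Sting gt/gt mice and KLF letters only, and of Hba-a1, whose group means were alike. They were picked after the matches were counted. Matched letters are in capitals, and each line reads 5′ to 3′ on the gene's strand.
Kel, chr6:41704326-41704575, minus strand: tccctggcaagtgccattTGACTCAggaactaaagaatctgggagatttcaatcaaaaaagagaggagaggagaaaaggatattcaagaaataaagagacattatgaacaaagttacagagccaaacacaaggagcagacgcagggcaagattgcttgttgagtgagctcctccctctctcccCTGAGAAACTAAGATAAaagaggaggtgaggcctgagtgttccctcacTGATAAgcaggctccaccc
Klf1, chr8:84901732-84901981, plus strand: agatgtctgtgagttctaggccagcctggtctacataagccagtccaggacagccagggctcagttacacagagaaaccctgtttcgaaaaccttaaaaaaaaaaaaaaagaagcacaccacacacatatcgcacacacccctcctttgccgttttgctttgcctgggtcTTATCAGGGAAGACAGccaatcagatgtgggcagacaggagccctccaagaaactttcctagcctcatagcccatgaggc
Rhag, chr17:40810899-40811148, plus strand: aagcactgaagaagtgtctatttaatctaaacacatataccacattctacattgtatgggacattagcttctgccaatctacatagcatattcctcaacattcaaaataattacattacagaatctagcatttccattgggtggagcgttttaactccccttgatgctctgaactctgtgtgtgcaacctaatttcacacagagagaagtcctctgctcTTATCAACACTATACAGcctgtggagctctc
Ermap, chr4:119189996-119190245, minus strand: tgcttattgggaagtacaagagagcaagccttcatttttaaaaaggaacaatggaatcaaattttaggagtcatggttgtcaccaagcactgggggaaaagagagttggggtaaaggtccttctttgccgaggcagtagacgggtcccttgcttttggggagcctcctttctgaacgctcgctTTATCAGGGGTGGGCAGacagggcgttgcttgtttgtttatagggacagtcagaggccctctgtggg
Epb42, chr2:121036878-121037127, minus strand: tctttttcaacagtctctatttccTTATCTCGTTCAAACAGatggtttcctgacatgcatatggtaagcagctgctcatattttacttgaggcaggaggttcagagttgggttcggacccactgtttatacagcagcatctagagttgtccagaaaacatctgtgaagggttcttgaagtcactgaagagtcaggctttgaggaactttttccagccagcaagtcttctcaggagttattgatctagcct
Tmod1, chr4:46038972-46039221, plus strand: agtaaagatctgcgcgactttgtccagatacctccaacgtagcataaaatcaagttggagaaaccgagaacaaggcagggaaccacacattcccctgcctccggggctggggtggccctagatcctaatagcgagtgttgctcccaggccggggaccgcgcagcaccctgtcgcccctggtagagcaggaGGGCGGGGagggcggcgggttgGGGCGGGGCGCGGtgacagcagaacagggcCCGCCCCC
Tfrc, chr16:32608646-32608895, plus strand: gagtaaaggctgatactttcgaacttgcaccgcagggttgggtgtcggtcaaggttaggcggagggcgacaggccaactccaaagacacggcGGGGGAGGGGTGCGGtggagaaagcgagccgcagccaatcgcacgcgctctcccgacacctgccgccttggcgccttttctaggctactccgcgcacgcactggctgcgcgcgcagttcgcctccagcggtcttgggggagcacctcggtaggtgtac
Hba-a1, chr11:32283422-32283671, plus strand: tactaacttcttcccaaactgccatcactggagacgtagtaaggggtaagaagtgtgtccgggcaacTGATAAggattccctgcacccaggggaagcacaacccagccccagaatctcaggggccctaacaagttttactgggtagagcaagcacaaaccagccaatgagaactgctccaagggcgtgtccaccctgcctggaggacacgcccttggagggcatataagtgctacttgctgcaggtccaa
In Kel the composite began 67 bases before the start, in the printed direction, and a further TGATAA began 19 bases before it. On the opposite strand, the match of Klf1 began 80 bases before the start, that of Ermap 67, that of Rhag 31 and that of Epb42 226. Hba-a1 held a TGATAA that began 183 bases before its start and no KLF letters. The 8 genes with the composite had a median fold change of -0.42 (log2) between the genotypes, and the 20 genes whose windows lacked it had one of -0.24. The medians were alike on scan day 1 (-0.14 in both) and -0.62 against -0.29 on scan day 2, the day on which each slide held 1 genotype. The split was made after the values were seen, and its difference was not tested.

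All levels below are log2 of the background-corrected probe signal minus the 75th percentile of the same array, so 0 is the level of a fairly bright probe. A fold change is always the mean of Sting gt/gt minus the mean of WT on this log2 scale, with its standard error (SE). A gene is called at an unadjusted p under 0.05 by limma, the study's own threshold, and the Benjamini-Hochberg adjusted p over all 24909 genes is given beside it. The replicates are separate mice, and their number limits the precision. Levels of different genes are not compared, since probes differ in brightness. In whole splenocytes, fewer erythroid cells and less RNA per erythroid cell cannot be told apart.

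The arrays were scanned on 2 days. Replicates 1 to 3 of both genotypes were read on scan day 1 and replicates 4 to 7 on scan day 2. On scan day 2 all 4 Sting gt/gt arrays shared 1 slide and the WT arrays lay on others, so slide and genotype cannot be told apart on that day. Probes well above background numbered between 31115 and 34398 on WT arrays and between 30781 and 33620 on Sting gt/gt arrays. The RNA of Sting1, the mutated gene, did not separate the genotypes, at 2.35 to 2.85 in WT and 2.45 to 2.77 in Sting gt/gt mice (log2 fold change 0.04, SE 0.10, adjusted p = 0.9998 by limma), and the mutation is a base change that need not alter the RNA. Lymphocyte markers of the spleen were present, since 9 of 10 listed B cell markers and 10 of 10 T cell markers passed the filter. One array stood apart in the erythroid genes. Sting gt/gt replicate 1 held the highest level of all 14 arrays for 19 of the 37 members, while it was the highest for 14.3% of all genes tested. Its mean over the 37 members was 4.53, against 3.40 to 3.85 in the other 6 Sting gt/gt mice and 3.75 to 4.32 in the 7 WT mice. Counts of called members are given with and without it, as are the single genes that are called without it and have their values printed here. Correlations between members were computed with it only.

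**Figure D1:**
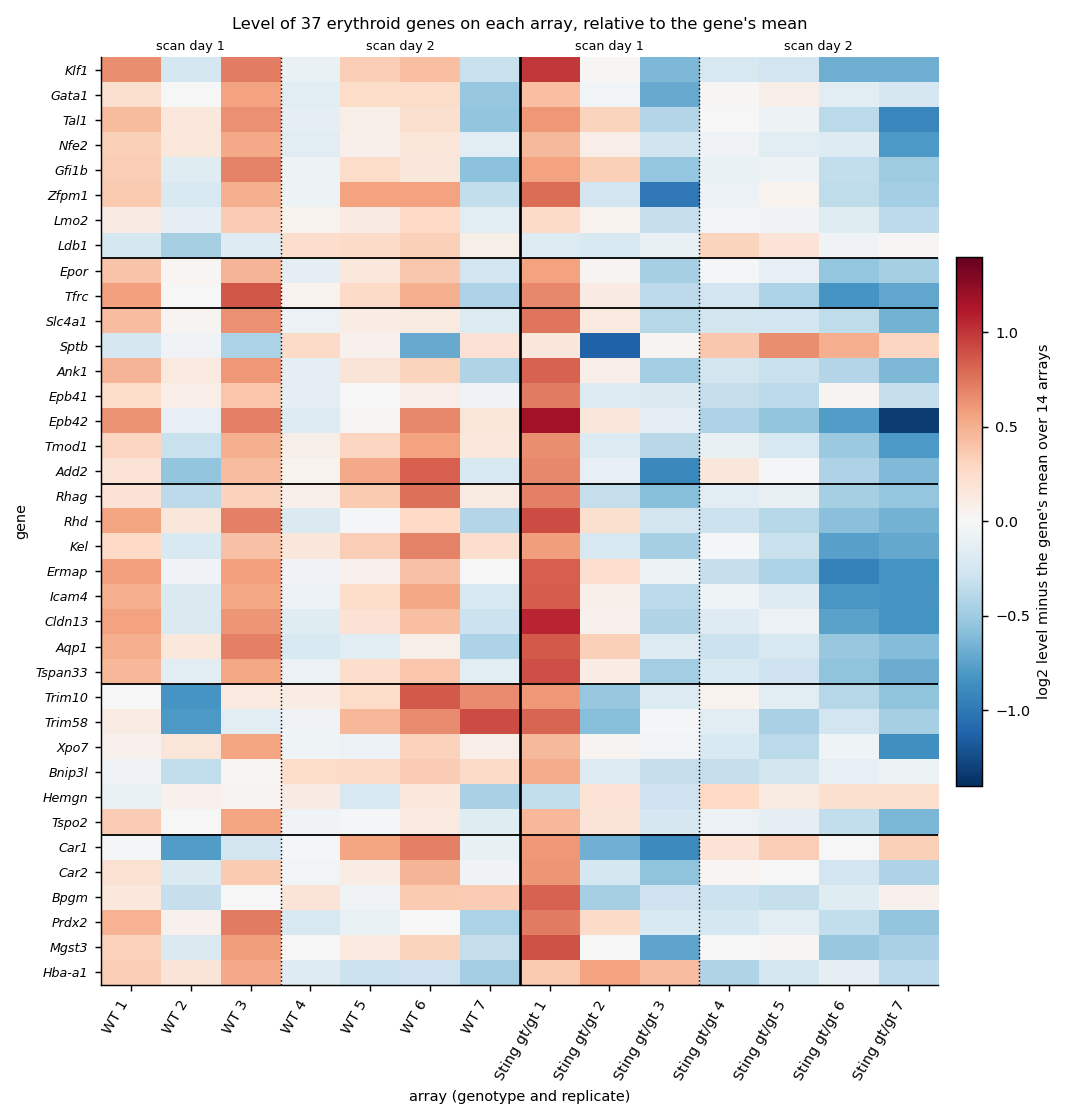
Level of each of the 37 genes (rows, grouped by role) on each of the 14 arrays (columns, by genotype and replicate), as log2 level minus the gene's mean, red above and blue below. Columns are alike from gene to gene: Sting gt/gt replicate 1 and WT replicates 1, 3 and 6 are red in most rows, Sting gt/gt replicates 3, 6 and 7 are blue, and Sptb, Hemgn, Ldb1 and Hba-a1 depart from this.

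With all 14 arrays, erythroid genes tended to lower levels in Sting gt/gt mice, by amounts close to the spread between mice. Of the 37 members, 34 had a negative fold change, and 3 passed the threshold, all lower: Kel, Tmod1 and Tfrc. Over all genes tested, 3.48% were called in either direction and 1.62% were called lower. No member passed an adjusted p of 0.05. The median log2 fold change of the members was -0.29, and the quartiles were -0.36 and -0.19, while the median of all genes tested was 0.02. For none of the 37 did the 2 groups stand fully apart, which held for 0.0442% of all genes. With scan day in the model, 5 members were called lower (Kel, Tfrc, Ermap, Tmod1 and Epb42), against 7.27% of all genes called in either direction and 3.52% called lower. Without Sting gt/gt replicate 1 the count was 24 of 37, all lower, beside 3.88% of all genes called lower, and the median was -0.40, and none passed the adjustment. With scan day in the model as well it was 28, beside 6.07% of all genes. In that model the count was 14 without WT replicate 2, 3 without WT replicate 3 or Sting gt/gt replicate 6, and 2 without WT replicate 5 or 6 or Sting gt/gt replicate 3 or 7. The share of all genes called in these fits is not given here. With the slide as a fixed block, the comparison is left to the 5 arrays on the 2 slides that hold both genotypes. These are WT replicates 1 to 3 and Sting gt/gt replicates 1 and 2, so the array that stood apart is 1 of 2 on the Sting gt/gt side. In that model none was called and the median turned to 0.08, with 6 of 37 negative. The model was not fitted without Sting gt/gt replicate 1. With the slide as a random block none was called either and the median was -0.11. With no block, leaving out any 1 of WT replicates 1, 3, 5 and 6 or Sting gt/gt replicates 3, 6 and 7 left 1 member called. In these fits 1.99% to 5.08% of all genes were called.

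Kel, the blood group antigen that is also a cell surface protease, had the lowest p. Its level was lowest at 3.94, median at 4.44 and highest at 4.85 in WT mice, and 3.40, 3.84 and 4.74 in Sting gt/gt mice. The highest Sting gt/gt value was that of replicate 1, and the other 6 Sting gt/gt mice lay at or below 4.13. Its log2 fold change was -0.55 (SE 0.19, limma p = 0.012, adjusted p = 0.9998), which is 1.46-fold lower, and by exact permutation of the mice (3432 arrangements, two-sided) p was 0.0216. A second probe of Kel gave a log2 fold change of -0.50.

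Tmod1 encodes tropomodulin, which caps the short actin filaments of the membrane skeleton. It ranged from 0.05 over a median of 0.66 to 0.93 in WT mice and from -0.45 over 0.13 to 1.02 in Sting gt/gt mice. The highest of all 14 values belonged to Sting gt/gt replicate 1. The log2 fold change was -0.45 (SE 0.19, limma p = 0.0348, adjusted p = 0.9998; exact permutation p = 0.0507).

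Tfrc, the transferrin receptor by which precursors take up iron, ranged from 3.17 over a median of 3.87 to 4.47 in WT mice and from 2.77 over 3.23 to 4.27 in Sting gt/gt mice. Its log2 fold change was -0.52 (SE 0.24, limma p = 0.0418, adjusted p = 0.9998; exact permutation p = 0.0641). Its second probe gave -0.60. Tfrc is made by every dividing cell, so its signal need not come from erythroid cells alone. The companion receptor Epor, through which erythropoietin acts, did not pass. It ranged from 4.03 over 4.44 to 4.77 in WT and from 3.76 over 4.18 to 4.85 in Sting gt/gt mice, with a log2 fold change of -0.29 (SE 0.18).

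None of the 8 transcription factors and cofactors was called, and all 8 had negative fold changes with a median of -0.21. Klf1, the activator of adult globin and many membrane genes, was among the 2 members with the widest spread over the 14 arrays, with an SD of 0.54. It ranged from 1.78 over a median of 2.44 to 2.81 in WT and from 1.402 over 1.82 to 3.08 in Sting gt/gt mice. Its log2 fold change was -0.42 (SE 0.26), and it was called on leaving out Sting gt/gt replicate 1 (-0.62, limma adjusted p = 0.473). Zfpm1, the cofactor FOG1 that binds GATA1, ranged from 4.73 over 5.44 to 5.63 in WT and from 4.07 over 4.80 to 5.85 in Sting gt/gt mice, a difference of -0.39 (SE 0.23). Gata1, the master factor of the lineage, differed by -0.18 (SE 0.18), and Tal1, its partner in the complex, by -0.24 (SE 0.22), and each was closer to 0 with 1 array left out (Gata1 -0.07 without Sting gt/gt replicate 3, Tal1 -0.11 without Sting gt/gt replicate 7). Lmo2, the bridging protein, had the narrowest spread of all members, with an SD of 0.22, and ranged from 4.55 over 4.83 to 5.07 in WT and from 4.35 over 4.66 to 4.99 in Sting gt/gt mice (-0.18, SE 0.12). Ldb1, the dimerizing cofactor found in many cell types, was alike in both groups, at -0.01 (SE 0.14).

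In the membrane skeleton, 6 of 7 genes had lower means in Sting gt/gt mice, and Tmod1 alone was called. Epb42, which encodes protein 4.2 and ties band 3 to the skeleton, had the widest spread of the 37, with an SD of 0.66. It ranged from 1.51 over 1.86 to 2.40 in WT mice. In Sting gt/gt mice it ranged from 0.36 over 1.27 to 2.87, and the 2.87 was replicate 1. The log2 fold change was -0.54 (SE 0.31, exact permutation p = 0.138). Epb41, the protein 4.1 gene that joins spectrin to actin, ranged from 6.99 over 7.21 to 7.51 in WT and from 6.74 over 6.91 to 7.85 in Sting gt/gt mice (-0.19, SE 0.16). Slc4a1, the anion exchanger band 3, differed by -0.30 (SE 0.20). Ank1 and Add2, which encode ankyrin and a spectrin-binding adducin, had fold changes of the same sign and were not called. Sptb, the spectrin beta gene, went the other way at 0.26 (SE 0.24), but its probe was well above background on only 2 of 7 WT and 5 of 7 Sting gt/gt arrays, so its values sit at the edge of detection.

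All 8 blood group and other surface genes had lower means in Sting gt/gt mice (their median fold change was -0.37), and Kel alone was called. Rhag, the Rh-associated glycoprotein of the ammonia channel family, came next with -0.42 (SE 0.20, limma p = 0.0513, adjusted p = 0.9998; exact permutation p = 0.0711). Ermap, the Scianna blood group protein, differed by -0.44 (SE 0.24), while its second probe gave -0.18. Aqp1, the water channel that carries the Colton antigens, ranged from 5.79 over 6.30 to 6.93 in WT and from 5.62 over 6.00 to 7.08 in Sting gt/gt mice (-0.19, SE 0.23). Rhd, Icam4, Cldn13 and Tspan33 were not called. Leaving out Sting gt/gt replicate 1 gave calls for genes named above that were not called with all arrays. Beside Klf1 these were at -0.78 for Epb42, -0.62 for Ermap, -0.58 for Rhag, -0.55 for Zfpm1, -0.45 for Slc4a1, -0.41 for Epor and -0.33 for Epb41. Ank1, Add2, Rhd, Icam4, Cldn13 and Tspan33 were called in that fit too, between -0.55 (Icam4) and -0.48 (Rhd). None of these calls passed the adjustment. Aqp1 went to -0.34 without a call, and Gata1, Tal1, Lmo2, Ldb1 and Sptb were not called either. The 3 genes called with all arrays stayed called, at -0.69 for Kel, -0.68 for Tfrc and -0.60 for Tmod1. Among genes of maturation, Trim10, Trim58, Xpo7, Bnip3l and Tspo2 had lower means and Hemgn a higher one, and none was called with all arrays. Without Sting gt/gt replicate 1, Xpo7, Bnip3l and Tspo2 were called, and Trim10, Trim58 and Hemgn were not. The probe used for Hemgn, a nuclear protein of erythroid and blood stem cells, ranged from 6.11 over 6.60 to 6.71 in WT and from 6.22 over 6.75 to 6.84 in Sting gt/gt mice (0.12, SE 0.13). Its dimmer probe gave -0.42, so the sign of Hemgn follows the probe. Other probes were tested for 19 members, and in 17 of these all probes had the same sign, the exceptions being Hemgn and Car1.

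The enzymes and globin differed least. Car2, Bpgm, Prdx2 and Mgst3, which act in carbon dioxide handling, in the regulation of oxygen release, in peroxide removal and in glutathione chemistry, had negative fold changes and were not called with all arrays. Without Sting gt/gt replicate 1, Car2, Bpgm and Mgst3 were called and Prdx2 was not. Car1, another carbonic anhydrase, was alike in both groups at -0.02 (SE 0.26). Hba-a1, an alpha globin gene, ranged from 8.56 over a median of 8.85 to 9.56 in WT and from 8.61 over 8.91 to 9.60 in Sting gt/gt mice, with a log2 fold change of 0.06 (SE 0.20, exact permutation p = 0.763). Its neighbour Hba-a2 is nearly identical, so this probe may read both, and none of its 14 spots was marked as saturated.

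**Figure D2:**
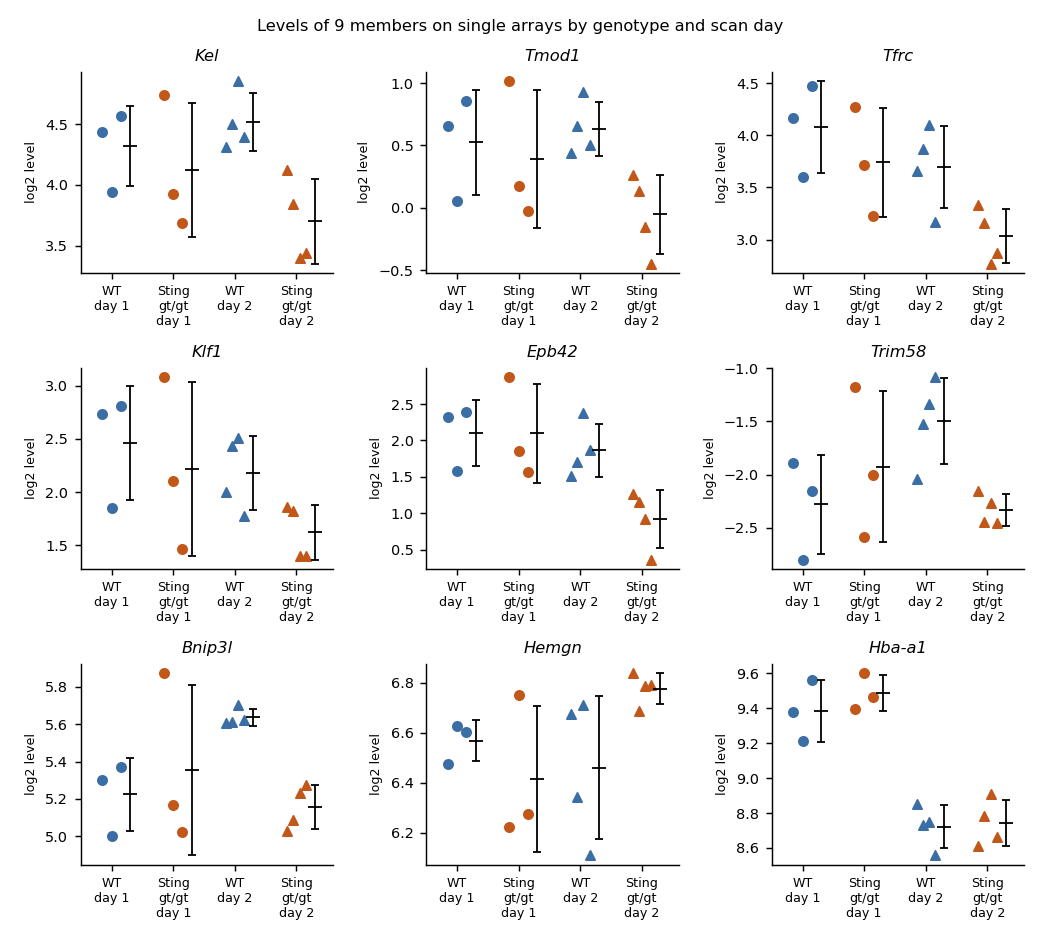
Log2 level of 9 members on each array, in panels with their own axes. Blue is WT and orange Sting gt/gt, circles are scan day 1 and triangles scan day 2, and the bar beside each set is its mean with SD. For Kel, Tmod1, Epb42, Trim58 and Bnip3l all 4 Sting gt/gt values of scan day 2 lie below all 4 WT values of that day, while on scan day 1 the sets overlap in all 9 panels.

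More members were called within scan day 2 than within scan day 1, with Sting gt/gt replicate 1 or without it. More of all genes were called on scan day 2 as well, and the reason was not tested. Within scan day 1 (3 mice against 3), 30 of 37 members had negative fold changes with a median of -0.14, and none was called, beside 3.86% of all genes, 1.05% lower. Without Sting gt/gt replicate 1, which leaves 2 Sting gt/gt mice that are assumed to vary like the WT mice, 35 of 37 were negative with a median of -0.43 and 5 were called lower, beside 1.87% of all genes called lower. Within scan day 2 (4 against 4), 34 of 37 were negative with a median of -0.39, the median of all genes being 0.02, and 17 were called lower and 1 higher. The gene called higher was Sptb, whose probe was well above background on only 2 of 7 WT and 5 of 7 Sting gt/gt arrays. It passed the filter mainly through the group where it is high, so no result is drawn from its call. On scan day 2 many genes were called in all, with 23.3% of all genes, 12.3% lower and 11% higher. One member, Bnip3l, passed the adjusted threshold, beside 421 of the 24909 genes tested in all. After median centring, without scaling and in the series table of the authors' processed values 0 members did, and 2 did after quantile normalization. For these other settings the share of all genes is not given here. For 10 members all Sting gt/gt values lay below all WT values, which held for 7.43% of all genes, and for Sptb all lay above. On scan day 1 no member stood apart this way, while 9.23% of all genes did so in one or the other direction.

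The 17 genes called lower on scan day 2 came mainly from the membrane and from the late steps. They were 6 of 8 surface genes (Kel, Ermap, Rhag, Tspan33, Icam4 and Rhd), 4 of 7 skeleton genes (Epb42, Tmod1, Slc4a1 and Ank1), 4 of 6 maturation genes (Bnip3l, Trim58, Trim10 and Xpo7), and Tfrc, Bpgm and Klf1. Among the 8 transcription factors only Klf1 was called, and whether the roles differ was not tested. Epb42 had the lowest fold change, -0.94 (SE 0.23, limma adjusted p = 0.0701). Its 4 WT values were 1.51, 1.71, 2.37 and 1.86, and its 4 Sting gt/gt values were 1.27, 1.15, 0.91 and 0.36. Trim58, a ubiquitin ligase that helps expel the nucleus, had -0.83 (SE 0.19, limma adjusted p = 0.0604) and Kel had -0.81 (SE 0.19, limma adjusted p = 0.0611). Ermap followed with -0.74 (SE 0.17, limma adjusted p = 0.0592), then Trim10 with -0.74 (SE 0.20, limma adjusted p = 0.0791) and Tmod1 with -0.69 (SE 0.17, limma adjusted p = 0.0729). Second probes gave -0.25 for Ermap on scan day 2, -0.82 for Kel and -0.55 for Tmod1, so the size for Ermap follows the probe. Bnip3l, which marks mitochondria for removal in reticulocytes, was tight within each group of that day. Its WT values were 5.61, 5.61, 5.70 and 5.62, and its Sting gt/gt values were 5.03, 5.09, 5.23 and 5.28, a fold change of -0.48 (SE 0.10, limma adjusted p = 0.0488). An exact permutation test of 4 against 4 cannot go below p = 0.0286, and that value was reached by each of the members whose groups did not overlap.

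**Figure D3:**
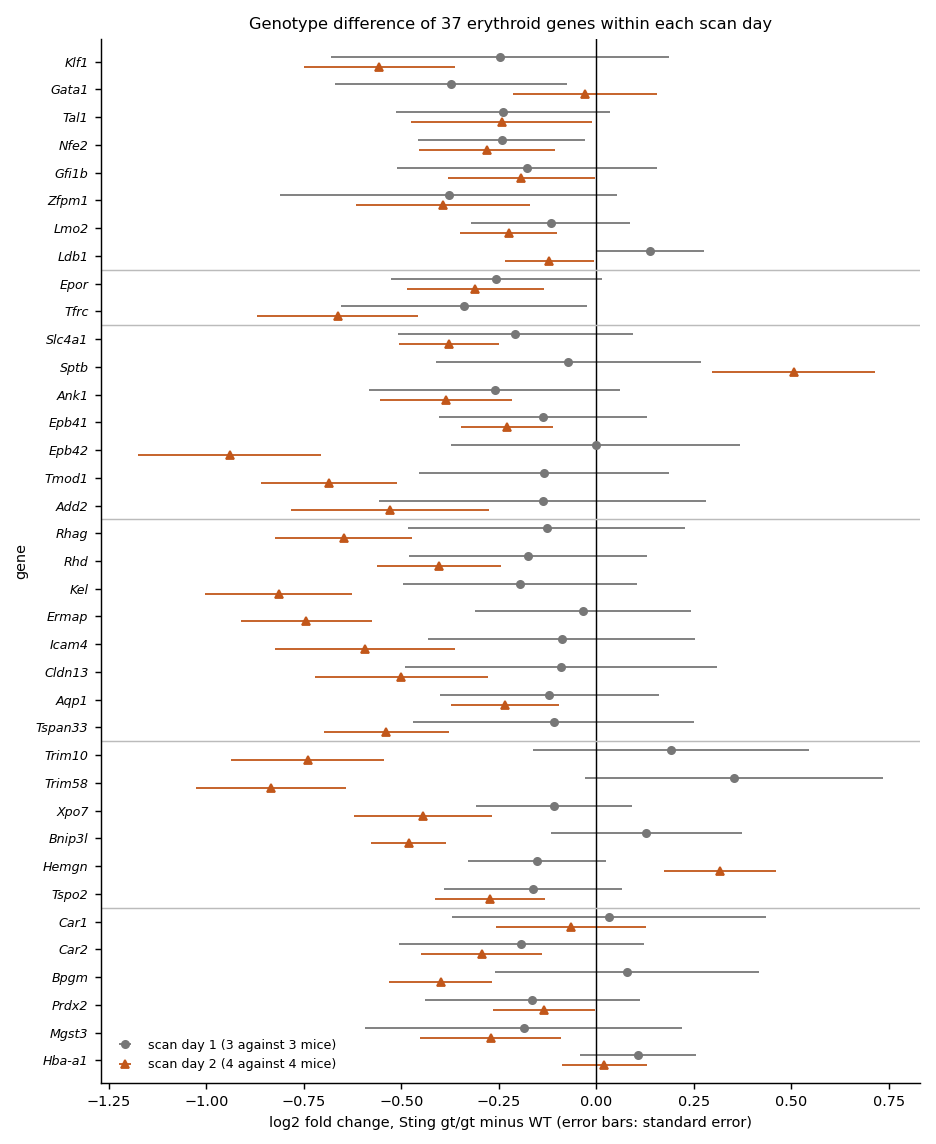
Log2 fold change of Sting gt/gt against WT for each member within scan day 1 (grey circles) and scan day 2 (orange triangles), with standard errors as bars and grey lines between the roles. Orange points sit left of grey ones for 33 of 37 genes, and 34 orange points lie below 0.

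For 33 of 37 members the fold change was lower on scan day 2 than on scan day 1, but for 19 of 37 after median centring and for 15 of 37 without Sting gt/gt replicate 1. Median centring moved the median of this difference over all genes from -0.004 to 0.12. That of the members went from -0.17 to -0.04, so it stayed below that of all genes. The interaction of genotype and scan day was called for 4 members, all in that direction, beside 18% of all genes called with 10.3% in that direction and 7.7% in the other. None passed the adjustment. Trim58 had the largest interaction, -1.19 (SE 0.43, limma adjusted p = 0.176). It was the only member with a Sting gt/gt mean above WT by over 0.3 on scan day 1 (0.35, SE 0.38), where WT values were -1.89, -2.80 and -2.15 and Sting gt/gt values were -1.18, -2.59 and -2.01. On scan day 2 its WT values were -2.04, -1.53, -1.34 and -1.08 and its Sting gt/gt values -2.16, -2.45, -2.26 and -2.46. Trim58 as a whole ranged from -2.80 over -1.89 to -1.08 in WT and from -2.59 over -2.26 to -1.18 in Sting gt/gt mice (-0.33, SE 0.26). Bnip3l had an interaction of -0.61 (SE 0.25, limma adjusted p = 0.214), and over both days ranged from 5.003 over 5.61 to 5.70 in WT and from 5.02 over 5.17 to 5.87 in Sting gt/gt mice (-0.22, SE 0.15; without Sting gt/gt replicate 1 -0.33, called). Trim10, a member of the same ligase family needed for terminal erythroid differentiation, had -0.93 (SE 0.41, limma adjusted p = 0.259). It ranged from 2.57 over 3.53 to 4.25 in WT and from 2.84 over 3.20 to 3.998 in Sting gt/gt mice (-0.34, SE 0.24). Ermap was the fourth, at -0.71 (SE 0.33, limma adjusted p = 0.277). Its second probe gave fold changes of -0.09 on scan day 1 and -0.25 on scan day 2, where the first gave -0.03 and -0.74. Without Sting gt/gt replicate 1, or without WT replicate 2, no interaction was called, and without the former the median over members was 0.05 in place of -0.17. Without WT replicate 7 or Sting gt/gt replicate 6 or 7 the count was 2, and it came to 7 with Sting gt/gt replicate 3 left out. The share of all genes beside these counts is not given here.

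Levels also moved with the scan day itself. With genotype in the model, 12 members were lower and 2 higher on scan day 2 than on scan day 1 at an adjusted p under 0.05, a share of the 37 close to the 38.8% of all genes called (21.6% lower and 17.1% higher). Hba-a1 had the clearest difference, at -0.70 (SE 0.08, limma adjusted p = 1.85e-05). Its WT values were 9.38, 9.21 and 9.56 on scan day 1 and 8.85, 8.73, 8.75 and 8.56 on scan day 2, and its Sting gt/gt values were 9.40, 9.60 and 9.47 and then 8.61, 8.79, 8.91 and 8.66, so the days did not overlap in either genotype. Aqp1 was lower by a log2 difference of -0.69 (SE 0.15, limma adjusted p = 0.00232), Rhd by -0.67 (SE 0.17, limma adjusted p = 0.0062) and Prdx2 by -0.60 (SE 0.14, limma adjusted p = 0.00445). The other genes lower on scan day 2 were Epb42, Ermap, Tfrc, Tal1, Ank1, Slc4a1, Tspo2 and Nfe2. Ldb1 (0.41, SE 0.09, limma adjusted p = 0.00233) and Car1 (0.59, SE 0.22, limma adjusted p = 0.0471) were higher. Leaving out any 1 of WT replicates 1, 3, 4 and 7 or Sting gt/gt replicates 1, 2, 6 and 7 brought the 14 genes down to between 6 and 9. The share of all genes in those fits is not given here. The authors' table of processed log2 values no longer held this difference: there no member was called, the median over members was 0.08 in place of -0.32, and 0% of all genes passed the adjusted threshold, while the genotype medians within the days were close to those above (-0.19 and -0.38).

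The members varied together from mouse to mouse within a genotype and scan day. After the mean of each genotype on each scan day was removed, the 666 pairs of members had a median Pearson r of 0.81 over 14 arrays (10 residual degrees of freedom), and 75.5% of pairs had r over 0.5. Over all pairs of tested genes the median was -0.003 and 13.9% had r over 0.5. All points share the array's labelling and scaling, so these are descriptions. Sting gt/gt replicate 1 is among the 14 arrays, and the correlations were not computed without it. The member means of Sting gt/gt replicates 1 to 3 were 4.53, 3.85 and 3.54, so replicate 1 weighs heavily in the residuals. The spread between mice was wide too, with a median SD of 0.37 over members against 0.23 over all genes. Tspan33, a tetraspanin needed for late erythropoiesis, followed the mean of the other 36 most closely (r = 0.99), and Rhd, Car2, Aqp1, Add2, Cldn13 and Klf1 followed at 0.98. At the other end, Sptb (r = -0.15), Hemgn (-0.01) and Hba-a1 (0.15) did not follow, and Ldb1 did so in part (0.48). Among late maturation genes Trim58 (0.56) and Xpo7 (0.63) were looser than Tspo2 (0.94), as was the enzyme Bpgm (0.57).

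**Figure D4:**
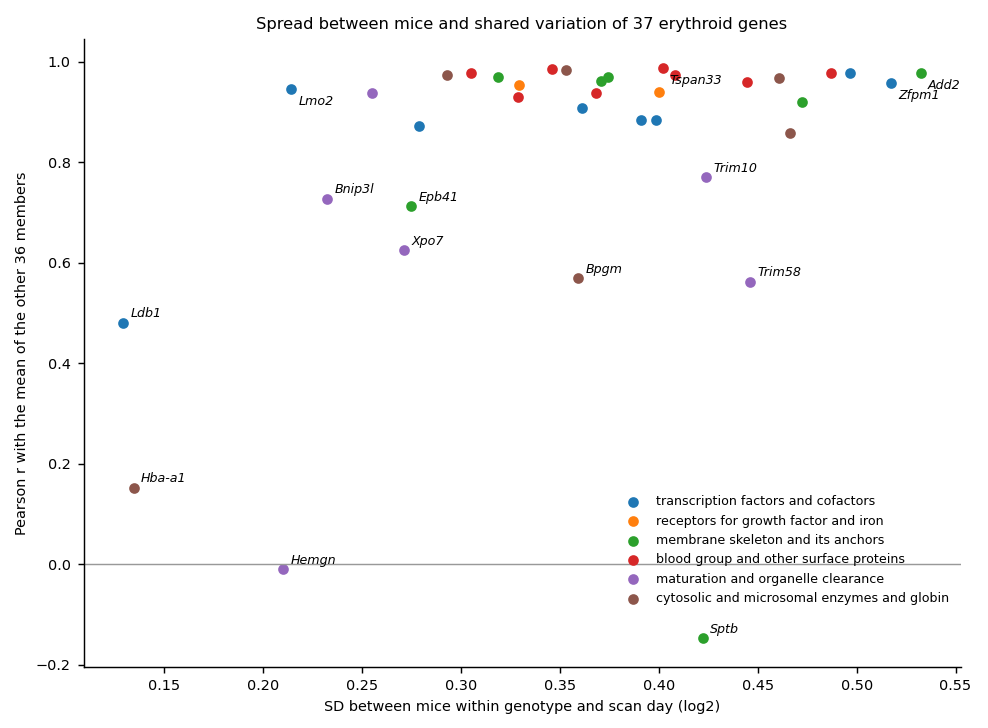
Each point is a member, coloured by role. The x axis gives its SD between mice within genotype and scan day on the log2 scale, and the y axis its Pearson r with the mean of the other 36 members over the 14 arrays after group means were removed. Most members lie above r = 0.85, Sptb, Hemgn and Hba-a1 lie near 0, and the 3 members with the smallest SD (Ldb1, Hba-a1 and Hemgn) all lie under 0.5.

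Among 14686 other symbols, the 8 genes whose residuals were most like the member mean had r between 0.986 and 0.996. They were Ackr1 (the Duffy antigen receptor), Inpp5b, Urod (a heme synthesis enzyme), Arrb1, Tnk1, E2f2 (a cell cycle factor of late erythroblasts), Slc25a21 and Kif4. In the genotype comparison none of the 8 was called, and their log2 fold changes lay between -0.40 (Ackr1) and -0.10 (Inpp5b).

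Other erythroid genes gave the same direction. Of 53 tested genes of that list, 45 had negative fold changes with a median of -0.23. Of the 53, 4 were called lower and none higher, beside 1.62% and 1.86% of all genes. Among the 4 called lower were Dmtn (dematin of the skeleton, -0.55, SE 0.21, limma adjusted p = 0.9998) and Fhdc1 (-0.49, SE 0.21). Without Sting gt/gt replicate 1, 48 of the 53 were negative with a median of -0.34. In that fit 29 were called lower and none higher, beside 3.88% of all genes called lower. On scan day 2, 25 of the 53 were called lower and 3 higher, beside 12.3% and 11% of all genes. Their summed level moved with that of the members and was highest of all 14 arrays on Sting gt/gt replicate 1. Their median r with the member mean was 0.90, so they are no independent support.

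Other cell markers moved with the days and the mice as well. On scan day 2 the log2 summed level of 10 stem and early progenitor markers was 4.42 to 4.63 in Sting gt/gt and 3.86 to 4.09 in WT mice, with 7 of 10 called higher, and no marker of this list called lower. On the same day the sum of 9 B cell markers was 6.72 to 6.96 in Sting gt/gt and 7.03 to 7.52 in WT mice, with 7 of 9 called lower. Of all genes, 11% were called higher and 12.3% lower on that day, when each slide held 1 genotype. The 15 megakaryocyte and platelet markers overlapped (7.31 to 7.56 against 7.21 to 7.49, 1 called higher), as did 10 neutrophil precursor markers (8.99 to 10.16 against 9.13 to 9.37, 1 called higher), 13 red pulp macrophage markers (7.78 to 8.28 against 7.79 to 8.10, none called) and 10 T cell markers (5.20 to 5.44 against 5.02 to 5.57, none called). The neutrophil precursor markers had a median log2 fold change of 0.48 on that day, with 0 of 10 lower. Their sums were 9.55, 10.03, 10.16 and 8.99 in Sting gt/gt replicates 4 to 7. Those of replicates 4 to 6 lay above all WT sums of the day and that of replicate 7 below them. The 20 proliferation markers, which dividing erythroblasts share, were at 8.45 to 9.03 against 8.51 to 9.20 with 1 called lower, and their median r with the member mean was 0.92. On scan day 1 the progenitor markers had a median log2 fold change of -0.11, with 7 of 10 lower and none called. The B cell markers had one of 0.29 on that day, with 1 of 9 lower and 1 called higher. By these medians both lists went the other way than on scan day 2. The progenitor sums of scan day 1 were 3.64, 4.20 and 4.07 in Sting gt/gt replicates 1 to 3 and 3.97, 4.17 and 4.09 in WT replicates 1 to 3. The progenitor median of that day is not given here without Sting gt/gt replicate 1. On Sting gt/gt replicate 1 the sum of the megakaryocyte list and that of the progenitor list were the lowest of all 14 arrays. The part of these other cells in the erythroid differences was not tested.

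**Figure D5:**
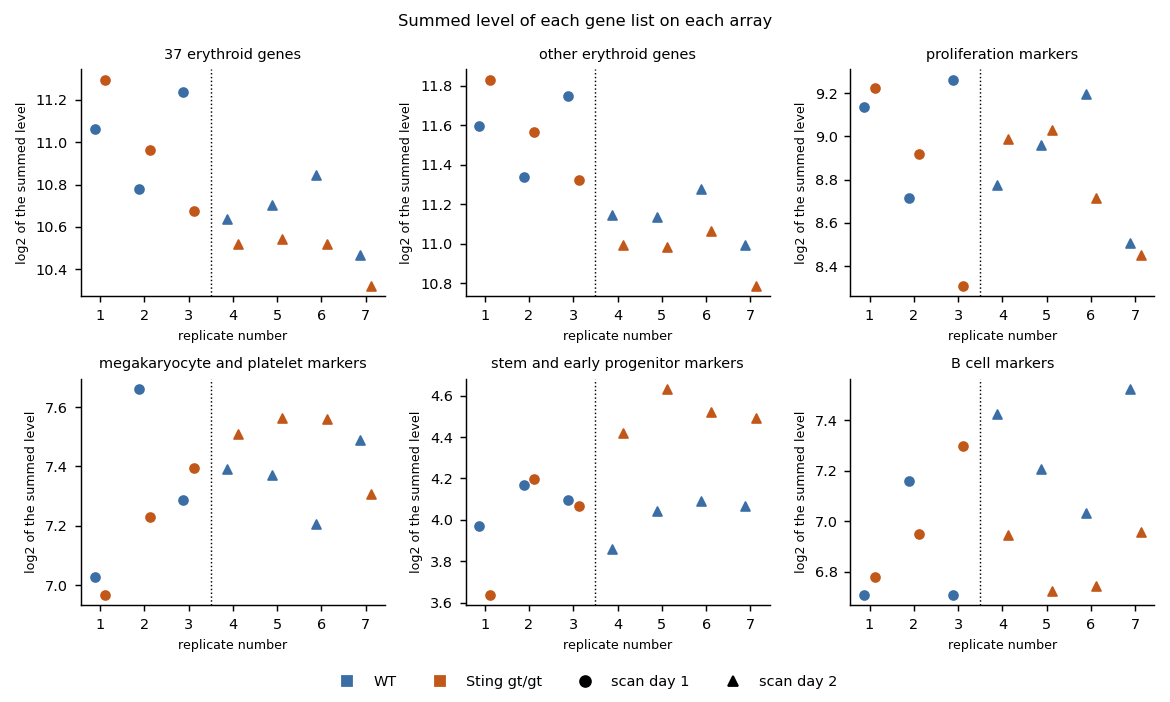
Log2 of the summed level of 6 gene lists on each array, against the replicate number that the labels give. Blue is WT, orange Sting gt/gt, circles are scan day 1 and triangles scan day 2, and the dotted line parts the days. The 37 genes, the other erythroid genes and the proliferation markers are high on the same arrays. On scan day 2 the progenitor sums of Sting gt/gt mice lie above and their B cell sums below those of WT mice. On scan day 1 the genotypes overlap in both lists.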

How the data were processed

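Splenocyte RNA of 7 WT and 7 Sting gt/gt mice was labelled with Cy3 and read on 1-colour Agilent arrays. The deposited scanner intensity values were made by the authors with Agilent Feature Extraction 11.0.1.1, which per the file headers subtracts background and flags outlier spots. A table of processed log2 values of the same arrays was deposited too by the authors (the series table), whose array medians lie between 5.49 and 5.52 and whose scaling is not given in the sources used here. It correlates with the scanner values at r of 0.997 to 0.999 and served as an alternative.

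From the scanner files, flagged spots were dropped, spots of a probe were averaged, and log2 of the processed signal was taken minus the 75th percentile of each array (562 to 697 in Sting gt/gt, 587 to 766 in WT). Probes were named through their accession in RefSeq (58.3% of 56605), since design names can be old. Probes well above background on at least 7 arrays were kept (31767). The brightest probe stood for each gene. limma 3.58.1 (R 4.3.3) was fitted over all 24909 genes with no covariate, with scan day, with the interaction, and within each scan day. The study's methods do not name its array test. Single genes were also tested by exact permutation. Scripts were tested on simulated data. Figures were drawn in Python 3.11.15 with matplotlib 3.10.9.

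The members and gene lists were chosen with earlier results of these data known. All members could be named, with values for the brightest of each role, those called, those with the lowest interaction p and those with the widest or narrowest spread. Other members named with values were chosen after those were seen. Same-numbered mice of the genotypes deviated together (r of 0.156 to 0.533), and within a scan day this was -0.408 to 0.248. For each replicate number r was thus lower once scan day means were removed, and the cause was not tested. Alternatives in scaling, background, filter, probe choice, test, block and arrays left out are given in the closing section, and those that leave out an array or rescale within a scan day, leave out an array with scan day in the model, or leave out Sting gt/gt replicate 1 for the gene lists, were chosen after seeing the data. Promoter windows came from a RefSeq table (GRCm38.p6), with no whole genome sequence at hand. Some single-gene results are not reported here. The number of arrays limits the precision.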

Additional observations from a re-analysis of the deposited data

Results flagged for a closer look

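Among 74 sets of 7 mice (37 genes in each genotype), 7 held an array far from its neighbours by Dixon's ratio, with a critical value of 0.568. That value flags about 1 set in 20 when the values are independent draws from 1 normal distribution. Here each set spans both scan days and the members vary together, so that share is no measure for these sets. The share of sets flagged over all genes is not given. In 6 of the 7 flagged sets it was Sting gt/gt replicate 1 that lay high: Bnip3l at 5.87 (ratio 0.701), Epb41 at 7.85 (0.625), Rhag at 2.40 (0.62), Bpgm at 5.12 (0.596), Trim58 at -1.18 (0.586) and Klf1 at 3.08 (0.579). In the other, Sting gt/gt replicate 2 lay low for Sptb, at -5.92 (0.659), a probe at the edge of detection.

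The genotype difference itself differed between scan days, by the limma interaction at an unadjusted p under 0.05, for Trim58 (-1.19), Trim10 (-0.93), Ermap (-0.71) and Bnip3l (-0.61), and for none after adjustment.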

How the results depend on the processing

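The number of members called between genotypes was 3. It was 11 after quantile normalization, 8 in the series table, 13 after normexp, 1 by the Mann-Whitney test, 22 with array weights, 5 with scan day and 0 with slide as a random or fixed block, and the cause was not tested. The share of all genes called was 3.48% at first and 3.81%, 7.74%, 3.66%, 2.87%, 17.5%, 7.27%, 1.79% and 3.6% in these settings. With the replicate block, where same-numbered mice were paired, the count was 4, beside 5.68% of all genes, and the median was -0.29. Each block holds 1 mouse of each genotype, so this median could not change. Leaving out 1 array gave 1 to 24 members, beside 1.99% to 7.9% of all genes, and a median of -0.40 to -0.22. Slide as a fixed block gave a median of 0.084. The count between scan days (14) was 7 after median centring, 9 without scaling, 0 in the series table and 6 to 16 with 1 array left out. The 4 interactions became 8 after quantile normalization, 2 after median centring, 2 without scaling and 0 to 7 with 1 array left out. Within scan day 1 the count was 0 to 5 with 1 array left out, within scan day 2 13 to 23, and with scan day in the model 2 to 28. The counts between scan days, of interactions, within a day and with scan day in the model stand without shares of all genes here. They do not tell a change of the members from a change of all genes. Median centring moved the median of all genes by 0.15 between scan days and by 0.12 in the interaction.

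The fixed slide block rests on 2 Sting gt/gt arrays, and 1 of them is replicate 1, which stood apart. With slide as a fixed block single genes turned sign: Klf1 0.15, Tal1 0.038, Zfpm1 0.073, Lmo2 0.026, Ldb1 0.089, Epor 0.010, Slc4a1 0.076, Sptb -0.13, Epb41 0.068, Epb42 0.29, Tmod1 0.084, Rhag 0.17, Kel 0.041, Ermap 0.18, Aqp1 0.14, Trim10 0.30, Trim58 0.48, Bnip3l 0.32, Hemgn -0.13 and Car1 0.40. With slide as a random block Hemgn was at -0.013 and Car1 at 0.047. Hemgn was at -0.15 as the mean of its probes and Ldb1 at 0.016 after normexp. Hba-a1 was at -0.013 after quantile normalization, -0.026 in the series table and -0.0045 with array weights. With 1 array left out, Ldb1 ran from -0.089 to 0.045, Car1 from -0.16 to 0.12 and Hba-a1 from -0.033 to 0.15, while Gata1 ran from -0.28 to -0.07, Tal1 from -0.36 to -0.11, Aqp1 from -0.34 to -0.083, Sptb from 0.16 to 0.47 and Hemgn from 0.049 to 0.18.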
